A study of Sus scrofa with 18 samples.

Results

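The 38 genes described here encode the enzymes, regulators and transporters of glycolysis and of glycogen turnover, most of them as isozymes of the same step that differ between muscle and other tissues. They were taken by symbol from a list of names drawn up with earlier results of these data known, so counts of members set beside all genes are descriptions. All 38 are present among the 27339 genes of a table of RNA-seq read counts from pig tissue. The study made double knock-in (DIK) pigs, whose genome carries parts of a doxycycline-controlled Tet-on switch and of the phiC31 integrase system, and compared tumours of such a pig with normal tissue of wild-type (WT) pigs. Doxycycline was given from 7 months of age to DIK founders and to WT pigs of the same age, so all groups share the drug, and tissue was taken 8 months after induction. Tumours at the nose, mouth and scrotum of 1 DIK founder gave 3 libraries each (DIK nose, DIK mouth, DIK scrotum), and normal tissue with the same 3 labels gave 3 libraries each (WT nose, WT mouth, WT scrotum). The labels do not name the genes that were switched on, and they do not say whether the 3 libraries of a group are separate tumours or pieces of 1. Every DIK library comes from 1 animal, and how many WT animals were sampled is not stated in the labels. The p-values below therefore describe the scatter among these 18 libraries alone, some of which may be technical. The effects of genotype, animal and tumour cannot be told apart.

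Glycolysis turns glucose into pyruvate, and lactate dehydrogenase turns pyruvate into lactate when it is not burned in mitochondria. Skeletal muscle stores glucose as glycogen, breaks it down on contraction and carries its own versions of several enzymes, among them the glucose transporter SLC2A4, phosphofructokinase PFKM, phosphoglycerate mutase PGAM2, enolase ENO3 and glycogen phosphorylase PYGM. Epithelia and many tumours use the more widely expressed versions, such as SLC2A1, PFKL, PFKP, PGAM1, ENO1 and PYGL. Several of these genes, SLC2A1, HK2, PGK1, LDHA, PDK1 and PFKFB3 among them, are textbook targets of the hypoxia-inducible factor.

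Library totals ran from 418665 counts (WT nose 1) to 5041470 counts (WT nose 3), and levels below are counts-per-million values (CPM) of the TMM-scaled total. On that scale 3 counts amounted to 0.478 to 5.74 CPM, the least sensitive library being WT nose 1. The 24 listed skeletal muscle markers in the table summed to 122870 to 171260 CPM in WT nose and 150080 to 398530 CPM in WT scrotum, but to 1313 to 3921 CPM in WT mouth, whose 12 smooth muscle markers summed to 97346 to 175990 CPM. In DIK the skeletal muscle sum was 14.5 to 954 CPM at the nose, 5.68 to 12.6 CPM at the mouth and 24.0 to 86.7 CPM at the scrotum, and 9 of the 24 markers (MYH4, MYH7, NEB, TNNT3, TNNI1, MYBPC1, MYL1, ACTN3 and MYOZ1) had no count in any DIK mouth library. The 11 keratinocyte markers summed to 23537 to 64877 CPM in DIK and to at most 1334 CPM in WT, other than 13580 CPM in WT scrotum 2. The normal tissues thus differed in their muscle markers, and the libraries labelled nose and scrotum held more skeletal muscle RNA than those labelled mouth. The 12 posterior HOX genes, which mark the caudal body, summed to 18.3 to 34.5 CPM in the libraries labelled WT mouth and 0 to 4.86 CPM in those labelled WT scrotum. This goes against these 2 labels, so every group name below stands for libraries so labelled, not for a checked site. WT mouth 1, WT scrotum 2 and DIK nose 2 stood apart from the others of their groups, and results whose call they change are given with and without them.

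**Figure D1:**
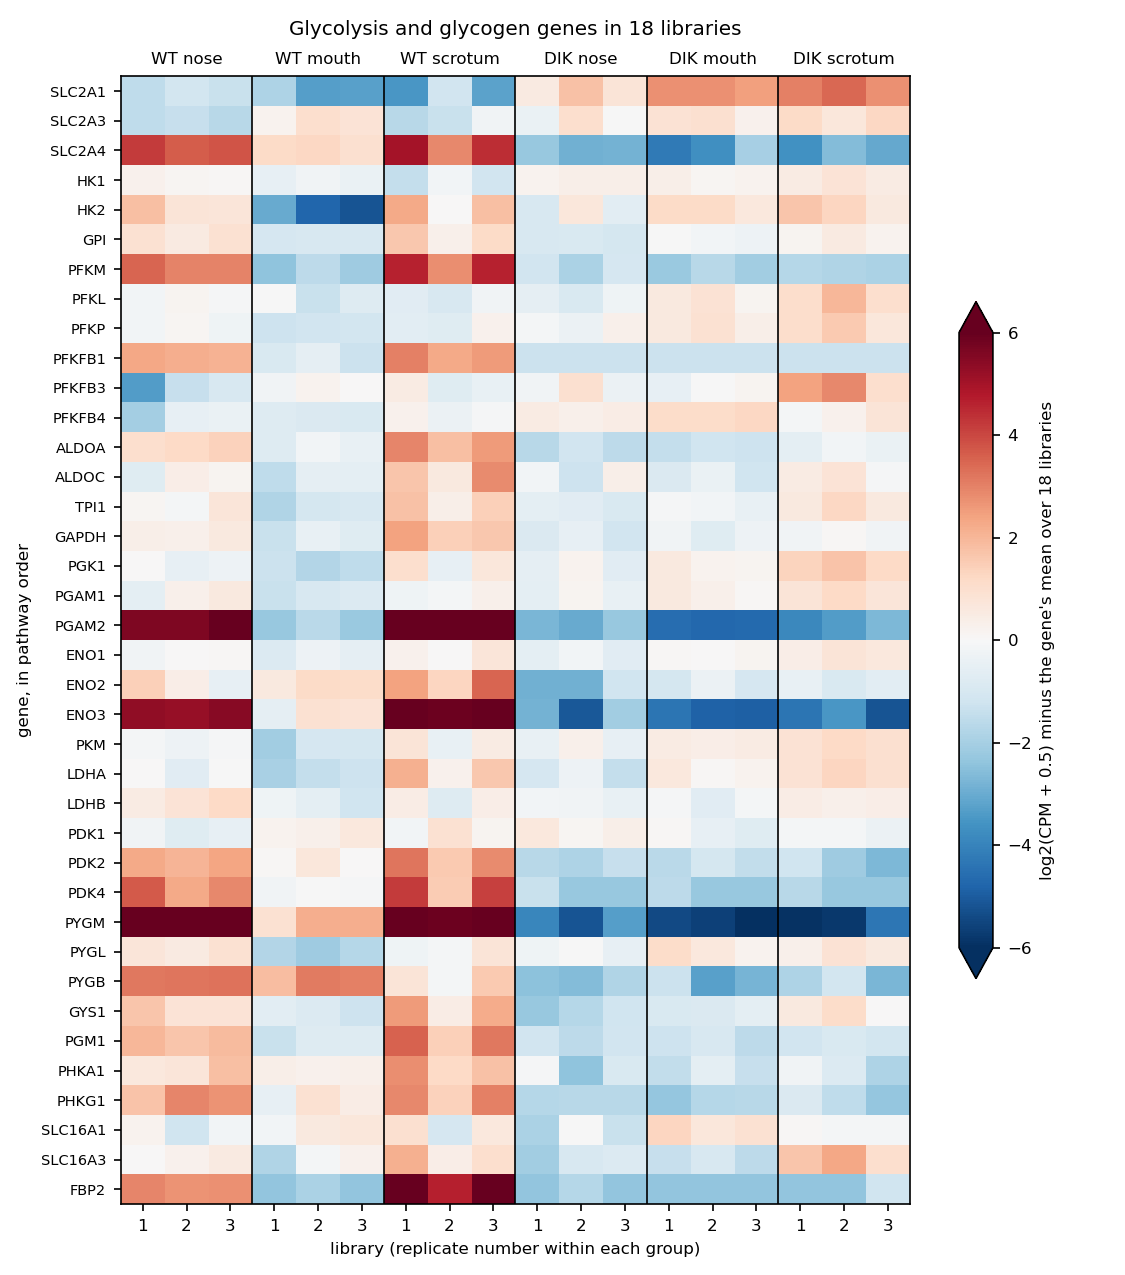
Level of each of the 38 genes (rows, in pathway order) in each of the 18 libraries (columns, 3 per group), as log2(CPM + 0.5) minus the gene's mean over all libraries; red is above and blue below that mean, and the scale is clipped at 6 either way. PYGM, PGAM2, ENO3 and FBP2 are deep red in WT nose and WT scrotum only, and SLC2A1 is pale to deep red in all 9 DIK libraries.

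Fewer of the 38 genes were higher in the tumours than lower at the nose and scrotum labels, and about as many at the mouth label. At the nose label 5 genes were higher in DIK and 22 lower, and 11 were not called (adjusted p under 0.05 in edgeR's quasi-likelihood test, Benjamini-Hochberg adjustment over all 12895 genes tested), against 21.9% and 20.1% of all genes tested called higher and lower. At the mouth label 12 were higher, 11 lower and 15 not called, against a background of 22.7% and 24.3%. At the scrotum label 7 were higher, 19 lower and 12 not called, against 19.4% and 24.0%. The lower counts at nose and scrotum therefore stood well above the background share (57.9% and 50% of the 38), and the higher counts there were under or near it (13.2% and 18.4%). At mouth the 31.6% higher and 28.9% lower were a little above it. The median log2 difference over the 38 genes was -1.29 at nose, 0.03 at mouth and -0.71 at scrotum, beside 0.03, -0.04 and -0.09 over all genes tested. In bulk tissue, fewer cells of a type and less RNA per cell cannot be told apart. Without WT nose 1 and WT scrotum 2 the counts were 5 higher and 22 lower at nose, 13 and 12 at mouth, and 7 and 19 at scrotum. Without WT mouth 1, WT scrotum 2 and DIK nose 2 they were 4 and 26, 12 and 13, and 7 and 23. The 5 higher at nose became 3 without WT nose 2 or WT nose 3, and the 11 lower at mouth became 7 without DIK mouth 3.

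Of the 38 genes 10 (26.3%, against 8.76% of all genes tested) were lower in DIK at all 3 labels: SLC2A4, PGAM2, ENO2, ENO3, PDK2, PDK4, PYGM, PYGB, PHKA1 and PHKG1. SLC2A1 was the 1 gene called higher at all 3 (2.63%, against 9.0%). Another 7 (PFKM, PFKFB1, ALDOA, GAPDH, GYS1, PGM1 and FBP2) were lower at nose and scrotum and not called at mouth (18.4%, against 4.47%). GPI, TPI1, PDK1 and PYGL were called in opposite directions at 2 labels (10.5%, against 2.85%), and ENO1 and SLC16A1 were called at none (5.26%, against 29.4%). Differences within 0.1 of 0 on the log2 scale, all uncalled, are named below without a value: there were 8, all 8 changed sign in some processing setting, and none was called in any. Without WT mouth 1, WT scrotum 2 and DIK nose 2 together, further differences were called lower: HK2 (-1.95), PGAM1 (-0.75), LDHA (-1.04) and SLC16A1 (-1.30) at nose, ALDOA (-1.04) and SLC16A3 (-1.55) at mouth, and HK2 (-0.84), TPI1 (-0.80), LDHA (-0.88) and SLC16A1 (-0.88) at scrotum.

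**Figure D2:**
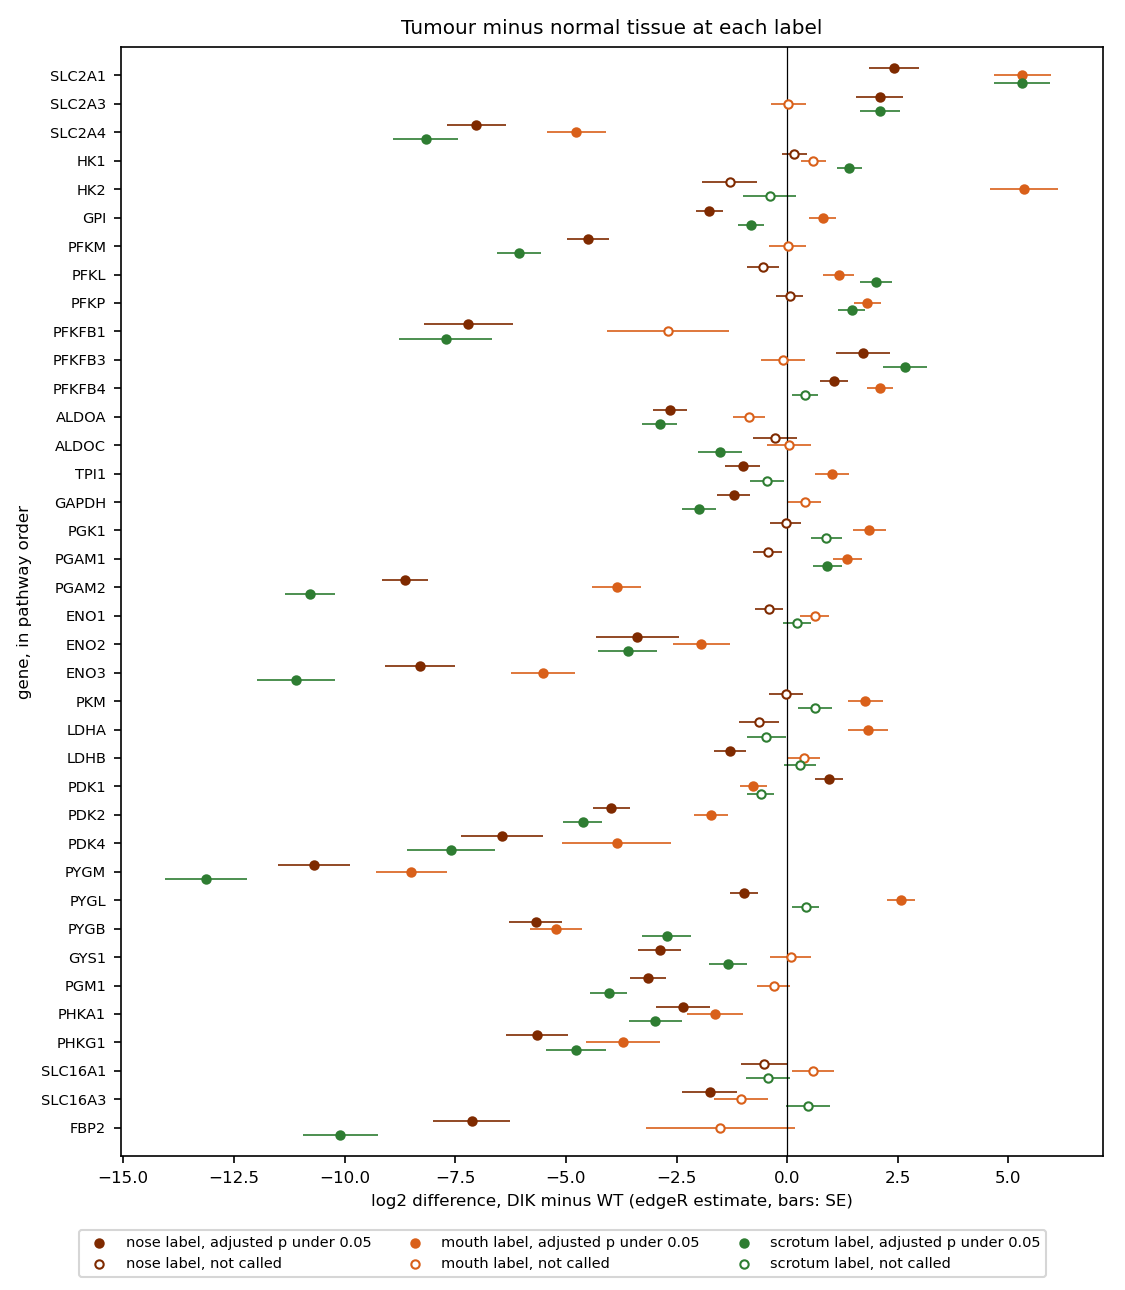
Log2 difference between tumour and normal tissue (horizontal axis, DIK minus WT, with its standard error as a bar) for each gene in pathway order, with 1 colour per label; filled points passed an adjusted p of 0.05 and open points did not. The muscle forms SLC2A4, PGAM2, ENO3 and PYGM lie far to the left at every label, while HK2, PGK1, PKM and LDHA have filled points to the right at the mouth label only.

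In glucose uptake, the muscle transporter SLC2A4 fell and SLC2A1 rose at every label. SLC2A1, the widely expressed glucose carrier of epithelia and red cells, was measured at 88.0, 116 and 98.8 CPM in WT nose, 68.1, 24.6 and 25.9 CPM in WT mouth and 22.1, 113 and 27.0 CPM in WT scrotum. In the tumours it reached 359, 836 and 423 CPM in DIK nose, 1681, 1673 and 1394 CPM in DIK mouth and 2029, 2734 and 1703 CPM in DIK scrotum. Every DIK library was above every WT library of its label, by 2.41 ± 0.56 on the log2 scale at nose (adjusted p = 0.00219), 5.31 ± 0.64 at mouth (adjusted p = 4.47e-06) and 5.30 ± 0.64 at scrotum (adjusted p = 3.41e-06). WT mouth 1 and WT scrotum 2 were the highest WT libraries of those labels, and without them the differences were 5.92 and 6.45. Both also held the most keratinocyte marker RNA of their groups. In WT nose, DIK mouth and DIK scrotum, however, the library with the largest keratinocyte sum had the lowest SLC2A1 (88.0, 1394 and 1703 CPM). In DIK nose it had the middle value (423 CPM). SLC2A4, the insulin-responsive carrier of muscle and fat, was measured at 172, 117 and 129.7 CPM in WT nose, 20.9, 21.8 and 18.3 CPM in WT mouth and 299, 70.4 and 207 CPM in WT scrotum. It fell to 1.45, 0.806 and 0.816 CPM in DIK nose, 0, 0.242 and 1.86 CPM in DIK mouth and 0.279, 1.07 and 0.624 CPM in DIK scrotum. No DIK library came near any WT library, and the log2 differences were -7.02 ± 0.66, -4.76 ± 0.66 and -8.17 ± 0.73. Single libraries moved 2 of them, the mouth value being -6.90 without DIK mouth 3 and the scrotum value -8.81 without DIK scrotum 2. SLC2A3, a high-affinity carrier best known from neurons, stayed within 1.67 to 16.2 CPM in all libraries. It was higher at nose (2.09 ± 0.53) and scrotum (2.1 ± 0.45, or 2.76 without WT scrotum 3) and within 0.1 of 0, not called, at mouth.

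Of the hexokinases, which trap glucose in the cell as its phosphate, HK1 rose at scrotum and HK2 at mouth, and the isomerase GPI that follows them was called in both directions. HK1, the housekeeping hexokinase, was measured at 119, 106 and 102 CPM in WT nose, 69.7, 85.1 and 74.2 CPM in WT mouth and 35.9, 87.4 and 43.3 CPM in WT scrotum. The tumours held 113, 124 and 126 CPM in DIK nose, 126, 107 and 113 CPM in DIK mouth and 136, 171 and 137 CPM in DIK scrotum. It rose at scrotum, by 1.4 ± 0.29 (adjusted p = 7.03e-04), and was not called at nose (0.16 ± 0.28) or mouth (0.59 ± 0.28), although all DIK mouth libraries exceeded the WT mouth ones and the difference was called without WT scrotum 2 (0.60). The test across labels did not call HK1 (adjusted p = 0.079). HK2, the inducible form of insulin-sensitive tissue, held 2.87, 0.520 and 0.261 CPM in WT mouth and 61.6, 61.5 and 42.5 CPM in DIK mouth, a rise of 5.35 ± 0.77, or 6.91 without WT mouth 1. In WT nose and WT scrotum HK2 was already at 27.9 to 132 CPM, and the differences there were not called (-1.30 ± 0.62 and -0.39 ± 0.60). All DIK nose libraries were nevertheless under the WT nose ones, and the difference was called without DIK nose 2 (-1.96). GPI, which turns glucose 6-phosphate into fructose 6-phosphate, was measured at 595, 468 and 607 CPM in WT nose, 161, 163 and 165 CPM in WT mouth and 987, 392 and 708 CPM in WT scrotum. The tumours held 165, 171 and 156 CPM in DIK nose, 314, 286 and 257 CPM in DIK mouth and 363, 459 and 367 CPM in DIK scrotum. GPI fell at nose (-1.76 ± 0.31, adjusted p = 2.12e-04), rose at mouth (0.80 ± 0.30, adjusted p = 0.0351) and fell at scrotum (-0.82 ± 0.30, adjusted p = 0.0353), where WT scrotum 2 lay within the DIK range. The mouth call was lost without WT mouth 1, WT mouth 2, WT mouth 3, DIK nose 1, DIK mouth 1 or DIK mouth 2 (0.75 to 0.82). The scrotum call was lost without WT scrotum 1, WT scrotum 3, DIK scrotum 1, DIK scrotum 2 or DIK scrotum 3 (-0.93 to -0.48).

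At phosphofructokinase, the committed step of glycolysis, the muscle subunit fell at nose and scrotum and the other subunits rose at mouth and scrotum. PFKM was measured at 1339, 938 and 938 CPM in WT nose, 21.7, 39.3 and 26.6 CPM in WT mouth and 2862, 808 and 2920 CPM in WT scrotum. The tumours held 52.5, 31.4 and 57.7 CPM in DIK nose, 24.6, 36.8 and 27.1 CPM in DIK mouth and 35.1, 33.2 and 30.6 CPM in DIK scrotum. At nose and scrotum the DIK libraries lay far under the WT ones, with log2 differences of -4.50 ± 0.47 (22.7-fold, adjusted p = 1.05e-06) and -6.06 ± 0.51 (66.7-fold, adjusted p = 6.34e-08), while at mouth both groups overlapped and the difference was within 0.1 of 0. PFKL, the liver-type subunit, was measured at 63.1, 77.8 and 67.5 CPM in WT nose, 69.9, 27.4 and 41.3 CPM in WT mouth and 43.4, 36.2 and 60.0 CPM in WT scrotum. It reached 48.7, 37.1 and 57.7 CPM in DIK nose, 106, 127 and 78.7 CPM in DIK mouth and 147, 275 and 140.3 CPM in DIK scrotum. PFKL rose at mouth (1.16 ± 0.35, adjusted p = 0.0106) and scrotum (2.01 ± 0.36, adjusted p = 1.96e-04) and was not called at nose (-0.55 ± 0.35), where all DIK libraries were under the WT ones. The mouth call was lost without WT mouth 2 (0.89). PFKP, the platelet-type subunit, was at 28.9 to 82.0 CPM in WT and 53.4 to 206 CPM in DIK. It rose at the same 2 labels, by 1.81 ± 0.31 at mouth and 1.46 ± 0.31 at scrotum, and was within 0.1 of 0 at nose.

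The phosphofructokinase-2 enzymes set the level of fructose 2,6-bisphosphate, the activator of phosphofructokinase. PFKFB2, reported below with the other pathway genes, averaged 6.61 CPM in WT nose. In DIK nose, mouth and scrotum it averaged 54.2, 43.7 and 32.6 CPM. These means were above those of PFKFB1, PFKFB3 and PFKFB4 in the same groups. PFKFB1, the form of liver and muscle, was measured at 5.74, 5.09 and 4.69 CPM in WT nose, 0.159, 0.347 and 0 CPM in WT mouth and 9.61, 5.46 and 6.75 CPM in WT scrotum. No read was counted in any of the 9 DIK libraries. Against a floor of 3 counts over the DIK group, PFKFB1 was at least 18.8-fold lower at nose (adjusted p = 1.20e-04) and at least 18.1-fold lower at scrotum (adjusted p = 7.64e-05). At mouth, where WT held 3 counts in all, no difference was detectable at this depth. PFKFB4, a form induced by low oxygen, was measured at 1.91, 6.54 and 7.03 CPM in WT nose, 5.26, 4.85 and 4.70 CPM in WT mouth and 11.3, 7.08 and 8.75 CPM in WT scrotum. The tumours held 13.3, 11.8 and 13.1 CPM in DIK nose, 20.5, 20.4 and 23.1 CPM in DIK mouth and 8.64, 11.4 and 16.2 CPM in DIK scrotum. All DIK libraries exceeded the WT ones at nose (1.06 ± 0.32, adjusted p = 0.0119) and mouth (2.09 ± 0.30, adjusted p = 2.20e-05), and the groups overlapped at scrotum (0.40 ± 0.30, not called). PFKFB3, the form of proliferating cells, was high in DIK scrotum (26.8, 37.8 and 9.98 CPM) beside 6.68, 2.63 and 3.25 CPM in WT scrotum, a rise of 2.66 ± 0.49. At nose PFKFB3 rose by 1.72 ± 0.61 from 0, 1.45 and 2.13 CPM to 3.87, 9.40 and 3.54 CPM, a call that was lost without WT nose 1, WT nose 2, WT nose 3 or DIK nose 2 (1.14 to 2.23), and at mouth it was within 0.1 of 0.

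From aldolase to phosphoglycerate kinase, ALDOA and GAPDH fell at nose and scrotum, and TPI1 and PGK1 rose at mouth. ALDOA, the aldolase of muscle and most other tissue, was measured at 6085, 6871 and 7870 CPM in WT nose, 1777, 2673 and 2245 CPM in WT mouth and 23203, 10439 and 17815 CPM in WT scrotum. The tumours held 969.6, 1348 and 1006 CPM in DIK nose, 1126, 1310 and 1261 CPM in DIK mouth and 1997, 2736 and 2261 CPM in DIK scrotum. The groups were apart at every label, but the difference was called at nose (-2.65 ± 0.38, adjusted p = 3.24e-05) and scrotum (-2.88 ± 0.39, adjusted p = 1.11e-05) and not at mouth (-0.86 ± 0.36, adjusted p = 0.058). The mouth difference was called without WT mouth 1, WT scrotum 1, WT scrotum 2 or DIK nose 2 (-1.04 to -0.85), and also with upper-quartile scaling (-0.98), library size alone (-1.09), a minimum of 10 CPM (-0.95), DESeq2 (-0.90) and the compared groups alone (-0.94), so the call at mouth depends on the processing. ALDOC, the brain-type aldolase, fell at scrotum (-1.52 ± 0.50) with overlapping groups, was not called at nose (-0.27 ± 0.50) and was within 0.1 of 0 at mouth. The scrotum call was lost without WT scrotum 3, DIK scrotum 1 or DIK scrotum 3 (-1.53 to -0.77). TPI1, which interconverts the 3-carbon sugars, was measured at 1291, 1092 and 1982 CPM in WT nose, 338, 578 and 604 CPM in WT mouth and 4026, 1509 and 3245 CPM in WT scrotum. The tumours held 789, 744 and 642 CPM in DIK nose, 1143, 1052 and 879 CPM in DIK mouth and 1763, 2849 and 1805 CPM in DIK scrotum. TPI1 fell at nose (-1.01 ± 0.39, adjusted p = 0.046), rose at mouth (1.01 ± 0.39, adjusted p = 0.0408) and was not called at scrotum (-0.46 ± 0.39). Both TPI1 calls are close to the threshold. The nose call was lost in 14 of the 18 fits that left out 1 library, all but those without WT nose 2, WT mouth 1, WT scrotum 1 or WT scrotum 2 (-1.16 to -0.71 over the 18). The mouth call was lost without WT mouth 1, WT mouth 2, WT mouth 3, DIK nose 1, DIK mouth 1, DIK mouth 2 or DIK mouth 3 (0.75 to 1.16).

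GAPDH, the dehydrogenase often used as a reference gene, was measured at 4415, 4302 and 5221 CPM in WT nose, 1378, 2550 and 2094 CPM in WT mouth and 18557, 9438 and 10757 CPM in WT scrotum. The tumours held 1945, 2523 and 1579 CPM in DIK nose, 2987, 2111 and 2858 CPM in DIK mouth and 3047, 3712 and 3021 CPM in DIK scrotum. GAPDH fell at nose (-1.21 ± 0.38, adjusted p = 0.0149) and scrotum (-1.99 ± 0.38, adjusted p = 4.25e-04), with no overlap at either, and was not called at mouth (0.40 ± 0.37). The nose call was lost without WT nose 3 or DIK nose 3 (-1.10 to -1.04). PGK1, the first enzyme of the pathway to yield ATP, was measured at 359.6, 244 and 279 CPM in WT nose, 140.3, 102 and 119.6 CPM in WT mouth and 700.0, 249.9 and 563 CPM in WT scrotum. The tumours held 241, 402 and 217 CPM in DIK nose, 529.7, 400.1 and 384 CPM in DIK mouth and 876, 1127 and 804 CPM in DIK scrotum. PGK1 rose at mouth (1.85 ± 0.37, adjusted p = 5.26e-04), was not called at scrotum although the groups were apart (0.89 ± 0.36, adjusted p = 0.0531), and was within 0.1 of 0 at nose. The scrotum difference was called without WT scrotum 1 or DIK nose 2 (0.89 to 1.20), and with DESeq2 (0.86). Several of these genes, GAPDH, PGK1, ENO1 and LDHA among them, have processed copies in mammalian genomes, and the labels do not say how reads mapping to several places were counted, which leaves their levels uncertain to that extent.

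At phosphoglycerate mutase and enolase the muscle isozymes fell at every label, and the widely expressed ones rose or were not called. PGAM2, the muscle mutase, was measured at 966, 962 and 1239 CPM in WT nose, 3.51, 5.89 and 3.66 CPM in WT mouth and 3552, 1429 and 2910 CPM in WT scrotum. The tumours held 2.42, 1.88 and 3.54 CPM in DIK nose, 0.316, 0.242 and 0.266 CPM in DIK mouth and 0.836, 1.43 and 2.49 CPM in DIK scrotum. PGAM2 fell, with log2 differences of -8.64 ± 0.52 at nose (399.7-fold, adjusted p = 1.36e-08) and -10.78 ± 0.57 at scrotum (1760-fold, adjusted p = 1.60e-09). At mouth WT held 70 counts and DIK 3, a ratio of 16.3 with a 95% counting interval of 5.34 to 80.7 (-3.85 ± 0.55, adjusted p = 2.61e-05). PGAM1, the mutase of other tissues, was measured at 166, 302 and 374 CPM in WT nose, 97.1, 126 and 141 CPM in WT mouth and 209.7, 229 and 307 CPM in WT scrotum. The tumours held 166, 275 and 182 CPM in DIK nose, 366, 308 and 261 CPM in DIK mouth and 426, 572 and 406 CPM in DIK scrotum. PGAM1 rose at mouth (1.35 ± 0.33, adjusted p = 0.00241) and scrotum (0.91 ± 0.32, adjusted p = 0.0295), overlapped at nose (-0.44 ± 0.32, not called), and lost its scrotum call without WT scrotum 1 or DIK scrotum 2 (0.74 to 0.80).

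ENO3, the muscle enolase, was measured at 2506, 2330 and 2738 CPM in WT nose, 42.9, 117 and 110.0 CPM in WT mouth and 8516, 3730 and 7682 CPM in WT scrotum. The tumours held 8.23, 1.34 and 14.4 CPM in DIK nose, 2.53, 1.70 and 1.59 CPM in DIK mouth and 2.51, 4.99 and 1.25 CPM in DIK scrotum. ENO3 fell, with log2 differences of -8.30 ± 0.79 at nose (adjusted p = 3.80e-07; -9.01 without DIK nose 3), -5.52 ± 0.72 at mouth (adjusted p = 1.01e-05) and -11.09 ± 0.88 at scrotum (adjusted p = 4.34e-08; -11.68 without DIK scrotum 2). DIK nose 1 and DIK nose 3, the 2 DIK libraries with the highest ENO3, had skeletal muscle sums of 747 and 954 CPM, and DIK nose 2 had a sum of 14.5 CPM. The other DIK groups, with few ENO3 reads, did not follow this order. DIK mouth 1 had the smallest sum of its group (5.68 CPM) and the highest ENO3. DIK scrotum 3 had the largest sum of its group (86.7 CPM) and the lowest ENO3. ENO1, the widely expressed enolase, was measured at 1865, 2164 and 2230 CPM in WT nose, 1232, 1753 and 1502 CPM in WT mouth and 2608, 2211 and 3619 CPM in WT scrotum. The tumours held 1429, 1946 and 1342 CPM in DIK nose, 2282, 2210 and 2420 CPM in DIK mouth and 2866, 3695 and 3332 CPM in DIK scrotum. ENO1 was called at no label (-0.41 ± 0.32 at nose, 0.62 ± 0.32 at mouth and 0.23 ± 0.32 at scrotum), although the mouth groups did not overlap and DESeq2 called the mouth difference (0.58). ENO2, the neuronal enolase, was low throughout, at 2.13 to 41.5 CPM in WT and 0 to 2.42 CPM in DIK. It fell at all 3 labels (-3.38 ± 0.94, -1.94 ± 0.65 and -3.60 ± 0.66). DIK nose 3 was the sole DIK nose library with ENO2 reads, so the fitted nose value without it (-6.87) is no bound. The scrotum value was -2.82 without WT scrotum 3, and the mouth call was lost without WT mouth 2, DIK mouth 1 or DIK mouth 3 (-1.82 to -1.77).

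At the end of the pathway, pyruvate kinase and lactate dehydrogenase A were called at the mouth label only. PKM, the pyruvate kinase of muscle and of most proliferating cells, was measured at 2624, 2311 and 2742 CPM in WT nose, 673, 1414 and 1365 CPM in WT mouth and 4920, 2122 and 4061 CPM in WT scrotum. The tumours held 2058, 3458 and 2025 CPM in DIK nose, 4051, 3751 and 3968 CPM in DIK mouth and 5169, 6519 and 5514 CPM in DIK scrotum. PKM rose at mouth (1.76 ± 0.40, adjusted p = 0.00145), was not called at scrotum (0.63 ± 0.39) and was within 0.1 of 0 at nose. The muscle and proliferative splice forms of PKM share a gene, so these counts do not separate them. LDHA, the lactate dehydrogenase subunit that favours lactate, was measured at 2297, 1406 and 2221 CPM in WT nose, 583, 856 and 967 CPM in WT mouth and 10025, 2687 and 6888 CPM in WT scrotum. The tumours held 1117, 1842 and 856 CPM in DIK nose, 3534, 2379 and 2659 CPM in DIK mouth and 4130, 5621 and 4395 CPM in DIK scrotum. LDHA rose at mouth (1.83 ± 0.45, adjusted p = 0.00303) and overlapped at nose (-0.64 ± 0.44) and scrotum (-0.47 ± 0.44), neither called. LDHB, the heart-type subunit, has a row LDHB and a row LDHB_1 in the table, and which of them is the full gene is not known, so both are uncertain. The row LDHB is the one counted among the 38. The row LDHB stayed within 2.61 to 16.0 CPM and fell at nose (-1.29 ± 0.37), with 0.38 ± 0.37 at mouth and 0.29 ± 0.36 at scrotum, not called. LDHB_1 stayed within 81.1 to 298 CPM and fell at nose (-1.13 ± 0.32) and scrotum (-1.06 ± 0.32), with 0.13 ± 0.31 at mouth, not called. The nose calls of both rows were lost without WT nose 3 (-1.05 for LDHB and -0.92 for LDHB_1), and the scrotum call of LDHB_1 without WT scrotum 1, WT scrotum 3 or DIK scrotum 3 (-0.93 to -0.88).

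Lactate leaves cells through monocarboxylate transporters. SLC16A1, the carrier of most tissues, was measured at 19.1, 6.91 and 14.7 CPM in WT nose, 14.8, 24.8 and 26.9 CPM in WT mouth and 32.6, 7.89 and 25.5 CPM in WT scrotum. The tumours held 4.11, 16.1 and 6.26 CPM in DIK nose, 41.0, 27.1 and 31.9 CPM in DIK mouth and 17.6, 15.3 and 14.97 CPM in DIK scrotum. It was called at no label (-0.51 ± 0.53, 0.59 ± 0.47 and -0.44 ± 0.49), although all DIK mouth libraries were above the WT mouth ones. The nose value was -1.27 without DIK nose 2, still not called. SLC16A3, the lactate exporter of glycolytic cells, held 5.74, 6.91 and 8.52 CPM in WT nose and 0.968, 2.69 and 2.99 CPM in DIK nose, and fell (-1.75 ± 0.62), a call that was lost without WT nose 2, WT nose 3, DIK nose 1 or DIK nose 2 (-1.91 to -1.41). At mouth its difference was -1.05 ± 0.61 and at scrotum 0.47 ± 0.50, not called, though the mouth difference was called without WT mouth 1 (-1.56). The scrotum value was 1.09 without WT scrotum 1, not called.

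Pyruvate dehydrogenase kinases switch off the entry of pyruvate into mitochondria. PDK2, a widely expressed form with high levels in heart and muscle, was measured at 93.7, 78.9 and 98.6 CPM in WT nose, 19.6, 30.1 and 19.1 CPM in WT mouth and 179, 57.3 and 136 CPM in WT scrotum. The tumours held 5.57, 4.83 and 6.80 CPM in DIK nose, 5.68, 8.72 and 6.38 CPM in DIK mouth and 7.80, 3.92 and 2.49 CPM in DIK scrotum. All DIK libraries were under all WT libraries, with log2 differences of -3.97 ± 0.42 at nose (adjusted p = 1.11e-06), -1.72 ± 0.39 at mouth (adjusted p = 0.00147) and -4.62 ± 0.43 at scrotum (adjusted p = 2.37e-07; -5.21 without DIK scrotum 1). PDK1, the form induced by low oxygen, was measured at 13.4, 9.09 and 10.7 CPM in WT nose, 18.2, 18.9 and 23.8 CPM in WT mouth and 13.8, 29.3 and 17.5 CPM in WT scrotum. The tumours held 24.4, 16.7 and 19.6 CPM in DIK nose, 16.1, 10.9 and 9.04 CPM in DIK mouth and 14.2, 14.3 and 11.8 CPM in DIK scrotum. PDK1 rose at nose (0.94 ± 0.32, adjusted p = 0.0239), fell at mouth (-0.76 ± 0.29, adjusted p = 0.0405) and was not called at scrotum (-0.60 ± 0.30). The nose call was lost without WT nose 2, WT nose 3 or DIK nose 1 (0.75 to 0.96). The mouth call was lost without WT nose 3, WT mouth 2, WT mouth 3, DIK nose 3, DIK mouth 2, DIK mouth 3, DIK scrotum 1 or DIK scrotum 2 (-0.81 to -0.58). PDK4, the form induced by fasting, nearly vanished from the counts: 2 in DIK nose, 1 in DIK mouth and 1 in DIK scrotum, beside 129, 28 and 304 in the WT groups. The WT to DIK ratios of PDK4 were 93.3 (95% counting interval 25.3 to 779), 19.5 (3.23 to 798) and 214 (38.2 to 8495), and all 3 were called, though the mouth call was lost without DIK mouth 2 or DIK mouth 3 (-3.38 to -3.33). DIK nose 1, DIK mouth 1 and DIK scrotum 1 held all of those reads, and without them the fitted log2 differences, which are then no bounds, were -9.05, -5.73 and -9.80.

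Glycogen phosphorylase, which releases glucose 1-phosphate from glycogen, changed its isozyme at every label. PYGM, the muscle form, was measured at 4956, 3658 and 4495 CPM in WT nose, 89.2, 219.5 and 218 CPM in WT mouth and 9600, 2833 and 6780 CPM in WT scrotum. The tumours held 2.66, 0.806 and 4.35 CPM in DIK nose, 0.631, 0.485 and 0.266 CPM in DIK mouth and 0.279, 0.357 and 1.87 CPM in DIK scrotum. PYGM fell, with log2 differences of -10.69 ± 0.82 at nose (1656-fold, adjusted p = 4.86e-08), -8.49 ± 0.80 at mouth (360.2-fold, adjusted p = 4.29e-07) and -13.13 ± 0.92 at scrotum (8961-fold, adjusted p = 1.09e-08), the last being -14.17 without DIK scrotum 3. DIK mouth and DIK scrotum held 5 PYGM counts each, so the size of these 2 folds is uncertain. PYGL, the liver form, was measured at 210.4, 188 and 238 CPM in WT nose, 36.7, 28.4 and 38.4 CPM in WT mouth and 106, 116 and 216 CPM in WT scrotum. The tumours held 108, 126 and 91.2 CPM in DIK nose, 273, 196 and 149 CPM in DIK mouth and 159, 235 and 194 CPM in DIK scrotum. PYGL fell at nose (-0.97 ± 0.31, adjusted p = 0.0171), rose at mouth (2.57 ± 0.33, adjusted p = 7.24e-06) and was not called at scrotum (0.42 ± 0.31). The nose call was lost without WT nose 3 or DIK nose 3 (-0.87 to -0.84). PYGB, the brain form, held 58.4 to 151 CPM in WT nose and WT mouth, 26.7, 14.6 and 48.0 CPM in WT scrotum and 1.21 to 7.13 CPM in DIK. It fell at all 3 labels (-5.68 ± 0.60, -5.22 ± 0.59 and -2.72 ± 0.55), the mouth value being -6.12 without DIK mouth 1.

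The glycogen synthase GYS1 and the mutase PGM1 fell at nose and scrotum and were not called at mouth. GYS1, the form of muscle and most tissues, was measured at 44.0, 24.7 and 24.1 CPM in WT nose, 8.61, 7.45 and 5.48 CPM in WT mouth and 82.3, 18.8 and 65.5 CPM in WT scrotum. The tumours held 2.42, 3.76 and 5.72 CPM in DIK nose, 6.94, 7.27 and 8.77 CPM in DIK mouth and 20.9, 30.0 and 13.7 CPM in DIK scrotum. GYS1 fell at nose (-2.88 ± 0.49, adjusted p = 1.66e-04) and, with overlapping groups, at scrotum (-1.34 ± 0.43, adjusted p = 0.0162), and was within 0.1 of 0 at mouth. The scrotum call was lost without WT scrotum 1, WT scrotum 3, DIK scrotum 1 or DIK scrotum 3 (-1.31 to -0.95). PGM1, which converts glucose 1-phosphate to glucose 6-phosphate, was measured at 247, 194 and 228 CPM in WT nose, 24.1, 35.5 and 36.3 CPM in WT mouth and 713, 169 and 549 CPM in WT scrotum. The tumours held 27.4, 20.4 and 27.5 CPM in DIK nose, 25.9, 31.5 and 20.5 CPM in DIK mouth and 27.0, 32.1 and 28.7 CPM in DIK scrotum. PGM1 fell at nose (-3.15 ± 0.40, adjusted p = 9.49e-06) and scrotum (-4.03 ± 0.42, adjusted p = 6.46e-07) with no overlap, and overlapped at mouth (-0.30 ± 0.37, not called).

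Phosphorylase kinase, which activates the phosphorylase, was represented by 2 muscle subunits, the regulatory PHKA1 and the catalytic PHKG1. PHKA1 was measured at 5.74, 6.18 and 13.6 CPM in WT nose, 4.62, 4.33 and 4.44 CPM in WT mouth and 27.6, 8.70 and 13.3 CPM in WT scrotum. The tumours held 3.39, 0.269 and 1.63 CPM in DIK nose, 0.947, 2.18 and 1.06 CPM in DIK mouth and 3.07, 1.78 and 0.624 CPM in DIK scrotum. PHKA1 fell at nose (-2.36 ± 0.61, adjusted p = 0.00458), mouth (-1.63 ± 0.63, adjusted p = 0.0393) and scrotum (-2.98 ± 0.61, adjusted p = 6.65e-04). The nose value was -1.73 without WT nose 3, where the call was lost, and -3.29 without DIK nose 1. The scrotum value was -3.58 without DIK scrotum 1, and the mouth call was lost without WT mouth 1, WT mouth 2, WT mouth 3, DIK mouth 1 or DIK mouth 3 (-1.65 to -1.42). PHKG1 was measured at 7.65, 18.2 and 15.3 CPM in WT nose, 1.28, 4.16 and 2.87 CPM in WT mouth and 17.5, 5.87 and 19.5 CPM in WT scrotum. The tumours held 0.242, 0.269 and 0.272 CPM in DIK nose, 0, 0.242 and 0.266 CPM in DIK mouth and 0.836, 0.357 and 0 CPM in DIK scrotum. PHKG1 was called lower at all 3 labels: 126 WT counts against 3 in DIK at nose (ratio 60.8, 95% counting interval 20.3 to 299), 43 against 2 at mouth (14.98, 3.90 to 128), and a log2 difference of -4.76 ± 0.68 at scrotum, or -5.78 without DIK scrotum 1. FBP2, the muscle fructose bisphosphatase that runs the phosphofructokinase step backwards, was measured at 19.1, 16.0 and 16.6 CPM in WT nose, 0, 0.173 and 0 CPM in WT mouth and 299.9, 65.0 and 167 CPM in WT scrotum. In DIK it had 1 count at nose, none at mouth and 1 at scrotum, against 132 in WT nose and 1706 in WT scrotum, ratios of 191 (33.7 to 7600) and 1203 (216 to 47550), both called (adjusted p = 1.44e-05 and 2.37e-07). Without the library that held that 1 read, DIK nose 2 or DIK scrotum 3, the fitted log2 differences, which are no bounds, were -8.95 and -12.38. At mouth WT had 1 count and DIK none, so no ratio is given.

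Within a step, the share of reads that fell on each isozyme is given as a mean ± SD over 3 libraries. Shares are of reads, since no transcript length was used, and stand in the order nose, mouth, scrotum. A step's reads are those of its listed isozymes, with LDHB_1 for lactate dehydrogenase. Isozymes outside the 38 are left out. Of glycogen phosphorylase reads, PYGM took 92.3% ± 0.914, 53.7% ± 4.64 and 96.8% ± 1.60 in the WT groups and 2.45% ± 1.88, 0.215% ± 0.0356 and 0.421% ± 0.455 in the DIK groups. PYGL took 4.51% ± 0.482, 12.4% ± 6.65 and 2.69% ± 1.45 in the WT groups and 94.9% ± 3.13, 98.5% ± 0.765 and 97.5% ± 0.601 in the DIK groups. PYGM thus had most of the step's reads in every WT group and under 5% in every DIK library. Of mutase reads, PGAM2 took 79.4% ± 5.13, 3.50% ± 0.979 and 90.4% ± 4.11 in the WT groups and 1.34% ± 0.618, 0.0889% ± 0.0119 and 0.352% ± 0.226 in the DIK groups. Of enolase reads, ENO3 took 54.7% ± 2.72, 5.45% ± 1.84 and 69.0% ± 6.95 in the WT groups and 0.568% ± 0.497, 0.0843% ± 0.0233 and 0.0866% ± 0.0488 in the DIK groups. WT mouth resembled the tumours more than the other WT groups in these 2 steps, with PGAM1 and ENO1 holding 96.5% ± 0.979 and 94.1% ± 1.87 of the reads. Of phosphofructokinase reads, PFKM took 88.6% ± 2.76, 28.4% ± 11.3 and 94.5% ± 2.96 in the WT groups and 28.9% ± 3.12, 12.3% ± 1.78 and 9.35% ± 2.51 in the DIK groups. PFKL and PFKP shared the rest in the tumours, PFKL with 29.6%, 43.0% and 49.5% and PFKP with 41.5%, 44.6% and 41.1%. Of glucose transporter reads, SLC2A4 took 57.3% ± 7.97, 30.3% ± 7.72 and 72.3% ± 30.0 in the WT groups and 0.227% ± 0.155, 0.0490% ± 0.0727 and 0.0296% ± 0.0139 in the DIK groups. SLC2A1 took 41.9% ± 7.87, 52.7% ± 15.7 and 26.4% ± 30.0 in the WT groups and at least 98.28% in every DIK library. It thus already had the largest share in every WT mouth library, and in WT scrotum 2 (60.9%). The WT scrotum share of SLC2A4 was spread from 37.9% to 92.6%, the lowest being WT scrotum 2. Of the reads of PDK1, PDK2 and PDK4, PDK2 took 75.1% ± 6.17, 50.6% ± 8.27 and 68.9% ± 7.04 in the WT groups and 22.2% ± 3.77, 37.2% ± 10.1 and 24.6% ± 9.20 in the DIK groups. PDK3, which is outside the 38, averaged 15.9, 16.2 and 14.4 CPM in WT and 13.6, 5.84 and 2.98 CPM in DIK. With PDK3 counted, the PDK2 shares would be smaller. HK2 held 35.3% ± 8.11, 1.64% ± 2.01 and 57.3% ± 29.0 in the WT groups and 16.1% ± 8.36, 32.2% ± 4.57 and 30.0% ± 8.06 in the DIK groups of hexokinase reads. ALDOA and LDHA held most reads of their steps in every group. Their means ran from 93.7% to 98.8% and from 87.0% to 97.4%. For these 2 steps the isozyme with most reads was the same in all 6 groups.

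**Figure D3:**
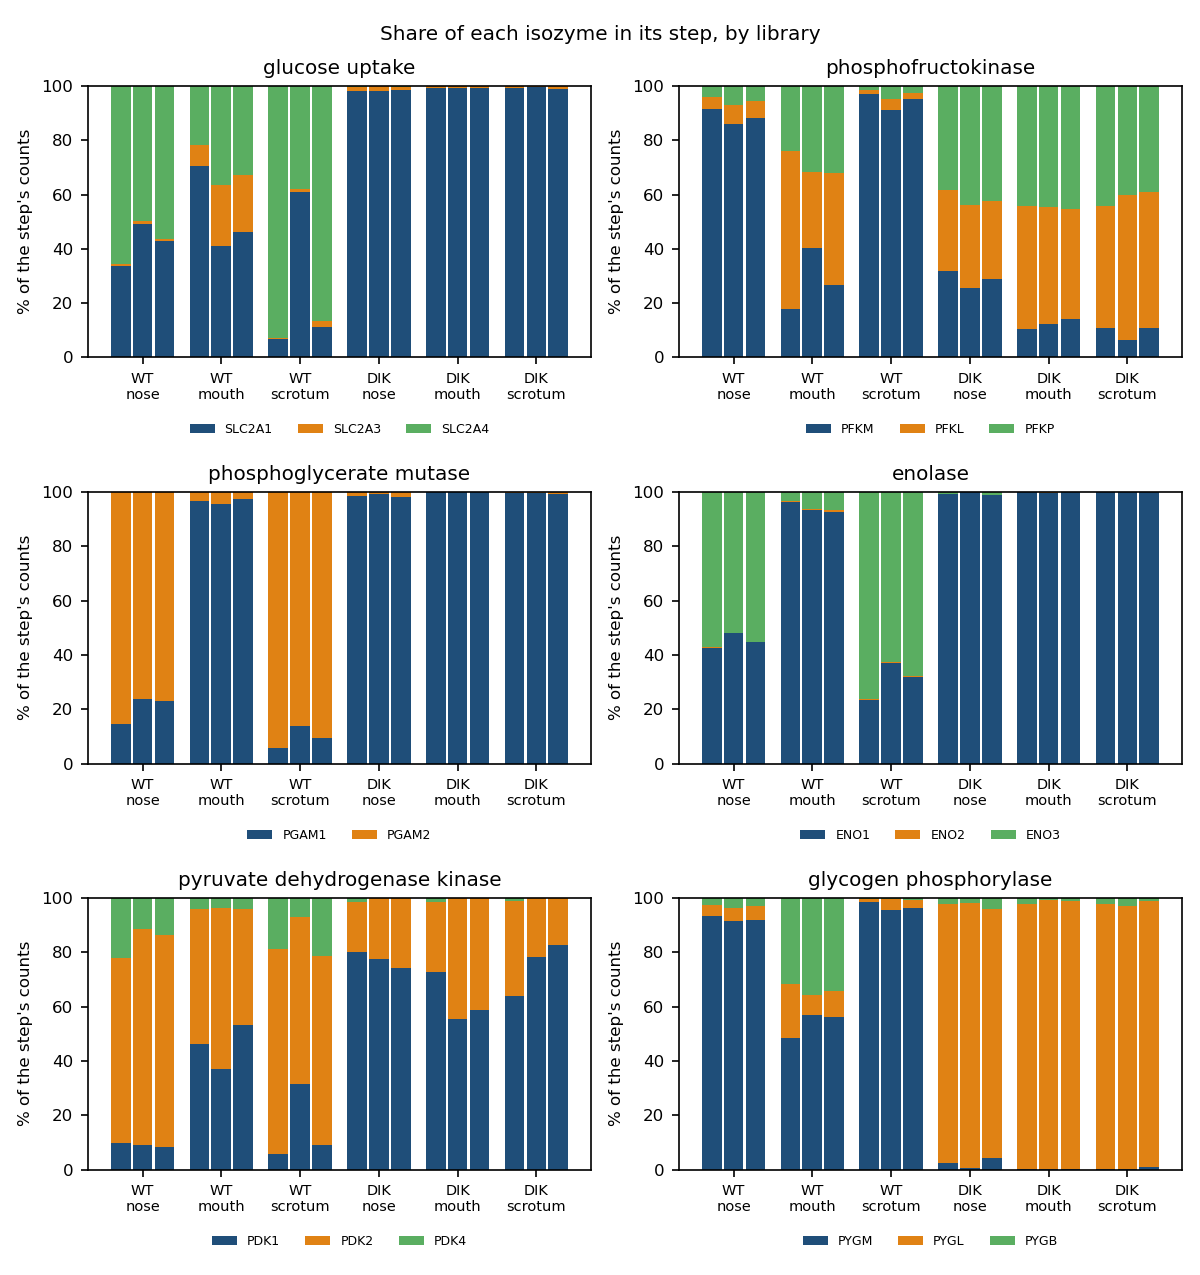
Percent of the counts of a step's listed isozymes (vertical axis) taken by each of the 3, or 2 for phosphoglycerate mutase, with 1 stacked bar per library in the 6 groups, for 6 steps. PYGM fills most of each WT nose and WT scrotum bar and PYGL each DIK bar, and the WT mouth bars of phosphoglycerate mutase and enolase look like those of the tumours.

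In 3 steps the summed reads moved less than the muscle isozyme did. Phosphoglycerate mutase summed to 1337 ± 249, 126 ± 22.7 and 2879 ± 1092 CPM (mean ± SD, n = 3) in WT nose, mouth and scrotum and to 210.3 ± 58.1, 312 ± 52.6 and 469 ± 90.4 CPM in the tumours. Enolase summed to 4616 ± 312, 1592 ± 300.0 and 9478 ± 3058 CPM in WT and 1580 ± 319.9, 2308 ± 106 and 3302 ± 416 CPM in DIK. Glycogen phosphorylase summed to 4731 ± 671, 319.9 ± 117 and 6580 ± 3408 CPM in WT and 114 ± 14.7, 209.7 ± 65.2 and 201 ± 39.5 CPM in DIK. Glucose uptake went the other way, from 242 ± 17.2, 70.7 ± 22.4 and 249.5 ± 69.2 CPM in WT to 549 ± 263, 1594 ± 165 and 2170 ± 524 CPM in DIK. All 38 genes together took 3.31% ± 0.514, 1.16% ± 0.190 and 5.84% ± 1.65 of counts in WT nose, mouth and scrotum and 1.07% ± 0.176, 1.83% ± 0.134 and 2.21% ± 0.295 in the DIK groups. These sums cover the listed genes alone, are descriptions and carry no test.

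The difference between tumour and normal tissue depended on the label for most of these genes. In a test of whether the DIK minus WT difference varies between the 3 labels (2 degrees of freedom, edgeR, adjusted over all genes tested), 25 of the 38 were called, 65.8%, against 18.5% of all genes. The count ran from 17 without DIK scrotum 1 to 28 without WT scrotum 2. PFKM (adjusted p = 1.98e-05), PYGL (adjusted p = 1.25e-04), PGM1 (adjusted p = 3.58e-04), PGAM2 (adjusted p = 4.79e-04) and HK2 (adjusted p = 6.85e-04) had the smallest values. For PFKM, PGM1 and PGAM2 the falls at nose and scrotum were larger than at mouth. For HK2 and PYGL the rise at mouth met no rise at nose. Among the 4 genes called in opposite directions, GPI (adjusted p = 0.00152), TPI1 (adjusted p = 0.0348), PDK1 (adjusted p = 0.0175) and PYGL passed this test. The 9 DIK libraries held 91.2 to 273 CPM of PYGL, and the opposite calls went with WT levels of 188 to 238 CPM at nose and 28.4 to 38.4 CPM at mouth. SLC2A4, HK1, ENO1, ENO2, PKM, PDK4, PHKA1, PHKG1, SLC16A1, SLC16A3, ALDOC and FBP2 were not called. PFKFB1 was not called either, but it had no DIK reads, so the test cannot compare its differences between labels.

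**Figure D4:**
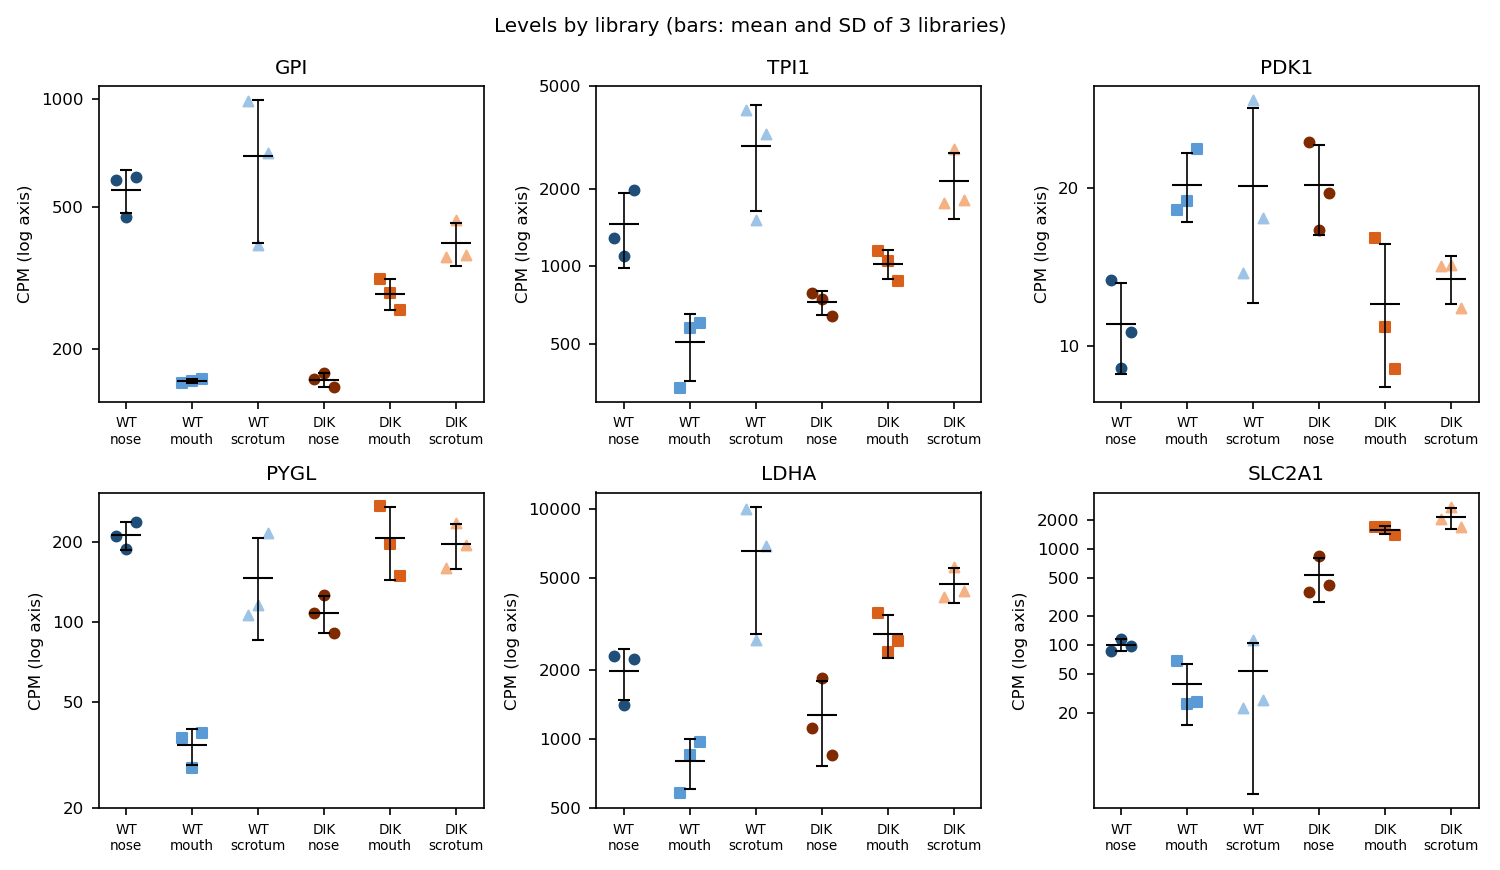
Level in CPM (log axis) of 6 genes in each library of the 6 groups, with the mean and SD of 3 libraries as bars. For GPI, TPI1 and PYGL the WT mouth libraries are the lowest WT group and DIK mouth lies above them, while DIK nose lies under WT nose; for SLC2A1 each DIK group lies above its WT group.

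Many of the 38 genes also differed between the normal tissues, WT mouth standing apart from WT nose. These comparisons share the WT nose libraries with each other and the WT libraries with the DIK contrasts, so their values stand beside those contrasts and are no independent support. Between WT nose and WT mouth, 24 genes were higher at nose and 2 lower, against 9.92% of all genes in each direction. PGAM2 was 7.90 ± 0.50 higher in WT nose, PFKM 5.19 ± 0.49, HK2 5.48 ± 0.78, ENO3 4.81 ± 0.67, PYGM 4.63 ± 0.62 and PYGL 2.62 ± 0.33. SLC2A3 (-2.49 ± 0.52) and PDK1 (-0.94 ± 0.32) were the 2 lower ones. Between WT nose and WT scrotum, 1 gene (PYGB, 2.33 ± 0.50) was higher at nose, against 3.45% of all genes, and 7 were lower, against 2.60%: FBP2 (-3.38 ± 0.51), ENO2 (-2.52 ± 0.64), ALDOC (-1.94 ± 0.51), LDHA (-1.73 ± 0.45), GAPDH (-1.48 ± 0.38), PGAM2 (-1.32 ± 0.37) and ALDOA (-1.31 ± 0.37). Those counts rest on few libraries: without WT scrotum 2, 3 were higher and 13 lower, 2 were lower without WT nose 1, 1 without WT nose 2 or WT nose 3, 4 without WT scrotum 1 and 3 without WT scrotum 3. The 2 genes lower in WT nose than WT mouth became 1 in 9 of the 18 fits that left out 1 library.

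The 3 DIK groups differed from each other in 9 of the 38 genes, 23.7%, against 6.32% of all genes: GPI, PFKL, PFKFB3, TPI1, PGK1, PGAM2, LDHA, GYS1 and SLC16A3. SLC16A3 was at 11.8 to 30.7 CPM in DIK scrotum and 0.968 to 2.99 CPM in the other 2 (adjusted p = 8.77e-04). PFKFB3 (adjusted p = 0.0023) was at 9.98 to 37.8 CPM in DIK scrotum and 3.16 to 9.40 CPM elsewhere in the tumours. PFKL (adjusted p = 0.00513) and PGK1 (adjusted p = 0.0138) were lowest in DIK nose and highest in DIK scrotum, at 37.1 to 57.7 and 140.3 to 275 CPM for PFKL and 217 to 402 and 804 to 1127 CPM for PGK1. LDHA (adjusted p = 0.0411), GPI (adjusted p = 0.0395) and TPI1 (adjusted p = 0.0395) followed the same order of group means, and GYS1 (adjusted p = 0.00667) too. PGAM2 (adjusted p = 0.00667) had the opposite extreme, with DIK nose highest and DIK mouth lowest. SLC2A1 missed the threshold (adjusted p = 0.0748), with 359 to 836 CPM in DIK nose and 1394 to 2734 CPM in the other 2. The count was 4 without DIK scrotum 2, 5 without DIK nose 1 or DIK nose 3, 6 without WT nose 1, WT nose 2, WT mouth 2, WT mouth 3, DIK scrotum 1 or any DIK mouth library, and 16 without WT scrotum 2.

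A further 64 genes of carbohydrate metabolism were listed, of which 53 were tested. At nose 6 of the 53 were higher and 27 lower, at mouth 8 and 18, and at scrotum 4 and 31, to be read against the same background shares as above. Those lower at all 3 labels numbered 10: LDHD, MPC1, GYG1, PGM2L1, PGM5, PPP1R3G, STBD1, EPM2A, GPD1 and TXNIP. MPC1, a subunit of the carrier that takes pyruvate into mitochondria, averaged 139 ± 6.77, 85.3 ± 14.03 and 147 ± 69.8 CPM in WT and 5.67 ± 1.49, 4.38 ± 2.09 and 4.56 ± 1.28 CPM in DIK (SD, n = 3), differences of -4.60 ± 0.41, -4.27 ± 0.41 and -4.96 ± 0.43. GPD1, which diverts a glycolytic intermediate to glycerol 3-phosphate, fell at nose (-8.32 ± 0.62), scrotum (-8.50 ± 0.63) and mouth (-1.74 ± 0.57), the mouth call being lost without DIK mouth 2 (-1.36). STBD1, a glycogen-binding protein, fell at nose (-6.20 ± 0.59, or -6.94 without DIK nose 3). TXNIP, a glucose-responsive brake on glucose uptake, fell at scrotum (-5.80 ± 0.50, or -6.55 without DIK scrotum 1). At mouth the genes with the smallest adjusted p beside MPC1 were PGM5, a relative of phosphoglucomutase found at muscle adhesions (-7.54 ± 0.54), and PPP1R3G, a glycogen-targeting subunit of protein phosphatase 1 (-3.36 ± 0.39). Of the 3 genes higher at all labels, PGM2, a phosphoglucomutase relative acting on pentose phosphates, rose by 2.50 ± 0.54, 1.97 ± 0.52 and 2.83 ± 0.54 (3.43 at nose without WT nose 3 and 2.62 at mouth without WT mouth 3). PKLR, the pyruvate kinase of liver and red cells, rose by 2.03 ± 0.44 at scrotum and 1.70 ± 0.47 at nose, where the call was lost without WT nose 2 (1.39) and the value was 2.38 without WT nose 3. PHKG2, the phosphorylase kinase subunit of liver, rose by 1.59 ± 0.36 at scrotum, opposite to the muscle subunit PHKG1. PFKFB2, the heart-type phosphofructokinase-2, rose at nose (3.11 ± 0.59) and mouth (2.99 ± 0.54). Its scrotum value was 1.11 ± 0.51, not called, and 2.48 and called without WT scrotum 2. GYG2, a primer of glycogen, rose at nose (1.33 ± 0.41), a call lost without WT nose 3 (1.11). GYG2 also rose at scrotum (1.48, or 2.05 without WT scrotum 2), a call kept in every fit that left out 1 library. At mouth its difference was not called (-0.53), though 1 such fit called it lower. UGP2, which makes the sugar donor of glycogen synthesis, rose at mouth (2.45 ± 0.47) and fell at scrotum (-1.21 ± 0.45, adjusted p = 0.0372). The scrotum call of UGP2 was lost without WT scrotum 1, WT scrotum 3, DIK scrotum 1, DIK scrotum 2 or DIK scrotum 3 (-1.27 to -0.68), and its nose difference (-1.16 ± 0.46) was not called but was called with DESeq2 (-1.22), with each other scaling tried, with a minimum of 10 CPM and with the compared groups alone.

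Many marker genes of cell types were also called. The counts below are to be read against the shares of all genes tested at nose, mouth and scrotum. These were 21.9%, 22.7% and 19.4% called higher and 20.1%, 24.3% and 24.0% called lower. Of the 24 skeletal muscle markers, 24, 22 and 24 were called lower in DIK at nose, mouth and scrotum, and of the 11 keratinocyte markers 9, 11 and 6 were called higher. PYGM was highest in the libraries with the largest skeletal muscle sums: the 6 WT nose and WT scrotum libraries held 2833 to 9600 CPM of PYGM, the WT mouth libraries 89.2 to 219.5 CPM and the DIK libraries 0.266 to 4.35 CPM. Among WT mouth libraries, replicate 1 had both the lowest muscle sum (1313 CPM) and the lowest PYGM and ENO3. SLC2A1 was highest in the DIK libraries, which held the largest keratinocyte sums. Within most groups, though, the library with the largest sum was not the one with the highest SLC2A1. Proliferation markers, 10 of 10 called higher at each label, summed to 153 to 308 CPM in DIK and 5.74 to 48.8 CPM in WT. The 8 gland markers summed to 51383 to 88970 CPM in WT nose and 19.6 to 40.6 CPM in DIK nose, and to at most 1745 CPM in the other WT libraries. Of 5 gland markers tested, 3, 2 and 1 were called lower at nose, mouth and scrotum, and 0, 1 and 1 higher. Of the 12 smooth muscle markers, 10, 12 and 9 were called lower, and their sum was 5922 to 175990 CPM in WT and 1215 to 6045 CPM in DIK. Adipocyte markers were lower for 5, 3 and 6 of 6 tested, endothelial markers for 2, 6 and 4 of 8, macrophage markers for 0, 5 and 5 of 6 (1 higher at scrotum), and nerve markers for 3, 4 and 3 of 5. The endothelial count at nose and both gland counts at scrotum, for example, were near the shares of all genes. Both tested neutrophil markers were higher at nose and scrotum and 1 at mouth, and the 1 tested erythrocyte marker was lower at mouth. The part of cell composition in the differences of the 38 genes was not tested.

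**Figure D5:**
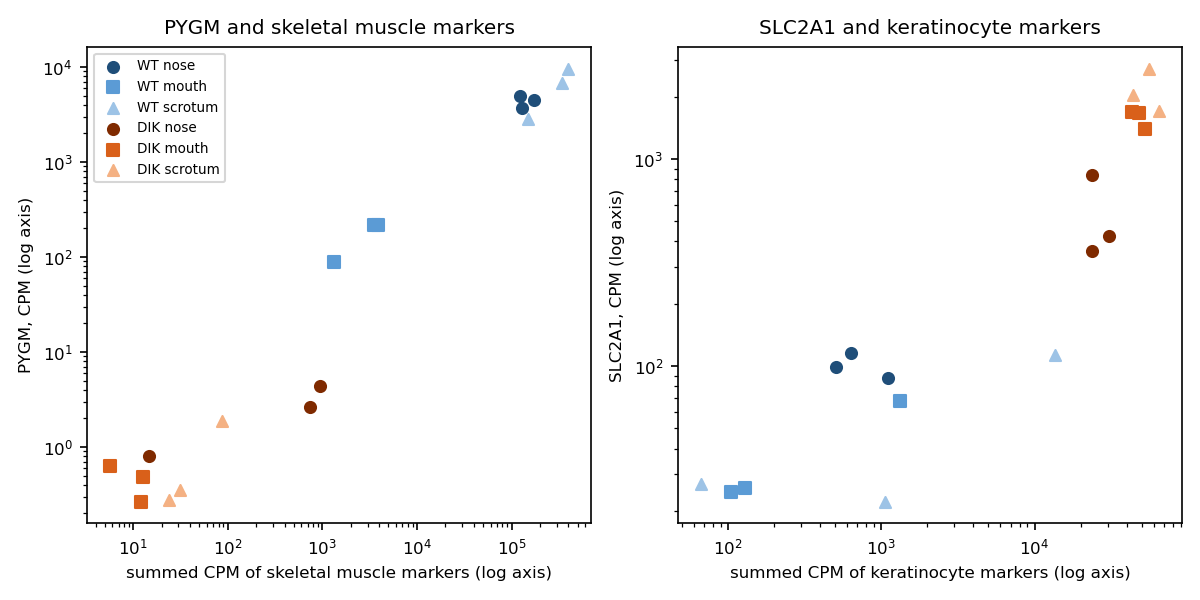
Level of PYGM against the summed level of 24 skeletal muscle markers (left) and of SLC2A1 against the summed level of 11 keratinocyte markers (right), both in CPM on log axes, with 1 point per library and 1 colour and shape per group. PYGM rises with the muscle sum from the DIK libraries through WT mouth to WT nose and WT scrotum, and all 9 DIK libraries lie above and to the right of the 9 WT libraries in the SLC2A1 panel.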

How the data were processed

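RNA was taken from tissue kept in RNAlater, extracted with TRIzol and made into libraries with a VAHTS mRNA-seq V3 kit, per the labels' protocols. The authors deposited raw read counts per gene for 18 libraries, 3 in each of 6 groups. Reads were processed with fastp, HISAT2 2.1.0 and HTSeq 0.11.2, per the submitters' processing notes. The sources used here do not give the genome build, whether strand was used in counting, or how multi-mapping reads were handled. Coordinates are therefore left out, and sequences were not used.

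The deposited counts were fitted for all 18 libraries as 6 group means with edgeR 4.0.16 (R 4.3.3, limma 3.58.1): TMM scaling, filterByExpr with a minimum count of 10 and a minimum total of 15 (12895 of 27339 genes kept), and the robust quasi-likelihood test, called at a Benjamini-Hochberg adjusted p under 0.05 over all genes tested. The standard error is the log2 difference divided by the root of its F statistic. Tests across the 3 labels have 2 degrees of freedom. The common biological coefficient of variation was 36.1%. Intervals of 95% and floors of 3 counts cover counting error only. DESeq2 1.42.0, other scalings and filters, stricter thresholds, fits of the compared groups alone, a replicate block and leaving out each library were the alternatives. Leaving out WT nose 1 and WT scrotum 2 together was a further alternative. Leaving out WT mouth 1, WT scrotum 2 and DIK nose 2 together was chosen after seeing the data. The fit was also run on simulated counts with known changes in DIK nose alone and equal gene means in all other groups. That setting is simpler than these data, so the run is no support for the results above.

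The members and gene lists were chosen with earlier results of these data known. Values per library are given for the member isozyme of each step with the highest mean CPM in WT nose. The same holds for the member isozyme with the highest mean in DIK. They are also given for a step's only member and for genes called in opposite directions. Genes outside the members were left out of this choice, even where their means were higher, as for PFKFB2. Other pathway genes were named as the 3 with the smallest adjusted p in each direction at each label among called genes at 10 CPM or more in the higher group. Replicates of a group differed by more than sampling noise in every pair.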

Additional observations from a re-analysis of the deposited data

Results flagged for a closer look

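The DIK minus WT difference varied between the nose, mouth and scrotum labels for 25 of the 38 genes in edgeR's quasi-likelihood test with 2 degrees of freedom, and each of the 25 is listed here for that difference between labels. The Benjamini-Hochberg adjusted p stands after each gene.

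Among transporters and the first steps these were SLC2A1 (0.016), SLC2A3 (0.0269), HK2 (6.85e-04) and GPI (0.00152). SLC2A1 was higher at all 3 labels, with its smallest difference at nose, and HK2 was called higher at mouth alone. Among phosphofructokinases and their regulators they were PFKM (1.98e-05), PFKL (0.00457), PFKP (0.0167), PFKFB3 (0.0245) and PFKFB4 (0.0227). PFKM fell at nose and scrotum, while PFKL and PFKP rose at mouth and scrotum.

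In the middle and lower pathway they were ALDOA (0.0166), TPI1 (0.0348), GAPDH (0.0111), PGK1 (0.0375), PGAM1 (0.022), PGAM2 (4.79e-04), ENO3 (0.00178), LDHA (0.0157) and LDHB (0.0417). TPI1 was called in opposite directions at nose and mouth, and PGK1 and LDHA rose at mouth alone. Among the kinases of pyruvate dehydrogenase and the glycogen enzymes they were PDK1 (0.0175), PDK2 (0.00338), PYGM (0.0228), PYGL (1.25e-04), PYGB (0.0247), GYS1 (0.014) and PGM1 (3.58e-04). PYGM fell at every label, by differing amounts, and PYGL and PDK1 were called in opposite directions at nose and mouth.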

How the results depend on the processing

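The direction of every called DIK minus WT difference of the 38 genes was kept in each setting run. Under library size alone, the median over all genes shifted to -0.29 at mouth and -0.21 at scrotum. The 5 genes higher at nose became 2, and the 11 lower at mouth became 7, at an adjusted p under 0.01, where the 25 that varied between labels became 9. The 9 that varied between DIK labels became 5 at that threshold and 17 with DESeq2 or with only the groups compared. They also became 17 without WT nose 1 and WT scrotum 2 (below, the doubted WT libraries). Without WT mouth 1, WT scrotum 2 and DIK nose 2 (below, without 3 libraries) they became 23. The 2 lower in WT nose than WT mouth became 1 with no filter on low counts, at an adjusted p under 0.01, with a 2-fold minimum or with the replicate block, and 4 without 3 libraries. The 1 gene higher in WT nose than WT scrotum became 2 with median-of-ratios or upper-quartile scaling, a minimum of 10 CPM, DESeq2 or the replicate block, and 3 without the doubted WT libraries or without 3 libraries. The 7 lower there became 3 with library size alone, 1 with only the groups compared or at an adjusted p under 0.01, 12 without the doubted WT libraries and 21 without 3. Of the other pathway genes, the 8 higher at mouth became 5 with library size alone or a minimum of 10 CPM.

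Over the fits that left out 1 library, the counts ranged from 3 to 5 higher at nose, 7 to 12 lower at mouth, 1 to 2 lower in WT nose than WT mouth, 1 to 3 higher and 1 to 13 lower in WT nose than WT scrotum, and 4 to 16 between DIK labels. Some uncalled differences changed sign: LDHB_1 at mouth was -0.11 with library size alone, and LDHB at scrotum was -0.0848 without the doubted WT libraries, -0.0967 without 3, and -0.0616 to 0.51 without 1. HK2 at scrotum ranged from -0.81 to 0.0619 and ALDOC at nose from -0.64 to 0.066. The cause of these shifts was not tested.

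Samples that share a replicate number did not pair: their deviations correlated at -0.048 to 0.089 over 9 pairs. With the replicate block, TPI1 lost its calls at nose (-0.99, adjusted p = 0.0622) and mouth (1.02, adjusted p = 0.0515), as did GPI at scrotum (-0.78, adjusted p = 0.0517), and no other member lost or gained one. Library size alone ended the calls of PDK1 at nose (0.89) and of GPI (0.56), PFKL (0.88) and TPI1 (0.79) at mouth. Fits of the compared groups alone ended those of GPI (-0.87), ALDOC (-1.59), PGAM1 (0.86), GYS1 (-1.42) and LDHB_1 (-1.12) at scrotum. No filter on low counts ended those of TPI1 at nose (-1.01), GPI (0.77), TPI1 (0.98) and PDK1 (-0.80) at mouth, and GPI (-0.82) and PGAM1 (0.89) at scrotum. Upper-quartile scaling and a minimum of 10 CPM ended GPI (0.69 and 0.71) and TPI1 (0.89 and 0.92) at mouth, and median-of-ratios scaling TPI1 (0.97) there. Depth limits low genes most: PFKFB1, PDK4, PHKG1 and FBP2 had 0 to 4 counts in each DIK group, and PYGM had 5 in DIK mouth and 5 in DIK scrotum. No lengths were used, and fits of the compared groups alone do not apply to the test across labels.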
